A study of Mus musculus with 24 samples.

Results

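The genes described are 38 mouse Psm genes that encode parts of the proteasome or proteins that bind or build it. They are grouped by name and by role: the 7 alpha ring subunits (Psma1 to Psma7) and 4 noncatalytic beta ring subunits (Psmb1 to Psmb4) of the 20S core, the 6 ATPases of the 19S base (Psmc1 to Psmc6), 3 other subunits of the base (Psmd1, Psmd2 and Psmd4), 8 subunits of the 19S lid (Psmd3, Psmd6, Psmd7, Psmd8, Psmd11, Psmd12, Psmd13 and Psmd14), 3 chaperones of 19S assembly (Psmd5, Psmd9 and Psmd10), 2 other activators (Psme3 and Psme4), 1 inhibitor (Psmf1) and 4 chaperones of 20S assembly (Psmg1 to Psmg4). All 38 were among the 35770 named genes of the table, and all 38 passed the filter on low values that left 13661 genes for testing.

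The measurements were mRNA sequencing of bone marrow-derived macrophages (BMDMs), grown from C57BL/6 mouse marrow with M-CSF, in 24 libraries with 3 in each of 8 groups. The BMDMs received control media, which had stood on a plate without cells, or conditioned media (CM) from wild type (WT), KEAP1 KO or NRF2 KO cells of LL2, a mouse Lewis lung carcinoma line. Each of the 4 media was given with vehicle or with 100 nM CDDO-Me, a synthetic oleanane triterpenoid that binds KEAP1 and activates NRF2. Groups are named by medium and drug, as in media/vehicle or WT CM/CDDO-Me. CM was conditioned by the cancer cells over 48 h and formed 75% of the medium placed on the BMDMs, which were harvested after 24 h. The knockouts were made by CRISPR in the cancer cells only, so the macrophages of every group carried intact Keap1 and Nfe2l2, and the sequenced RNA does not test the knockouts. The labels name 3 samples a group and do not say that they came from separate animals, so the p-values measure the spread between these samples, which may be technical.

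The 20S proteasome is a barrel of stacked rings. The outer alpha rings form the gate, and the inner beta rings hold the sites that cut proteins. The 19S particle caps the barrel, binds proteins tagged with ubiquitin, unfolds them with its ATPases and feeds them inside, while other activators open the gate without ubiquitin. In immune cells interferon exchanges the catalytic beta subunits for immunoproteasome forms, whose peptides are presented on MHC class I. The NRF1 factor (gene Nfe2l1) is known for raising proteasome genes when proteasome activity falls, and NRF2 (gene Nfe2l2) for raising some of them under oxidative stress, both through antioxidant response elements (AREs).

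Levels are given as TPM, a gene's share of the transcripts corrected for length. Read as TPM, the values can be compared between genes within a library. The depth of each single library behind the TPM is not known. Replicate 3 of NRF2 KO CM/vehicle and replicate 3 of NRF2 KO CM/CDDO-Me stood apart from the others: 15702 and 16299 genes were above 0 in them, against 17817 to 18993 in the other 22 libraries, and the lowest correlations between replicates, 0.962 and 0.975, were in their groups. Results are therefore given with all libraries and without these 2. As a check of the drug, all 8 NRF2 targets listed for the purpose were higher with CDDO-Me in media and in NRF2 KO CM, 6 in WT CM and 7 in KEAP1 KO CM, and Nqo1 ran from 2.22 to 5.19 TPM in vehicle libraries and from 41.6 to 219 TPM in CDDO-Me libraries. All 8 macrophage markers averaged above 1 TPM in every group, and their summed level ran from 15201.5 to 38646.4 TPM. The 9 fibroblast markers summed to 218.8 to 2703.4 TPM, while the dendritic, lymphocyte, neutrophil and epithelial lists summed to at most 9.98 TPM in any library. In bulk RNA, fewer cells of a type and less RNA per cell cannot be told apart.

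In naïve macrophages (media/vehicle) the members' mean levels spanned from 19.4 TPM for Psmd9, a chaperone of 19S assembly, to 361 TPM for Psmd8, a lid subunit. The 7 alpha ring genes lay between 56.1 TPM (Psma2) and 168 TPM (Psma6), a 2.99-fold range around a median of 154 TPM. The 4 beta ring genes lay between 105 TPM (Psmb1) and 206 TPM (Psmb4). The ATPases of the base were closer together, from 79.8 TPM (Psmc2) to 150.2 TPM (Psmc3). The lid had the widest range of any role, 7.35-fold, from 49.0 TPM for Psmd11 to Psmd8, and the lid gene next to it, Psmd6, averaged 101 TPM. The chaperones, the inhibitor and the Psme4 activator were at most at 50.1 TPM (Psmg4). Subunits of 1 complex were thus not listed at equal mRNA levels.

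Promoters were read for 32 of the 38 genes from the RefSeq table of the GRCm38.p6 build, in windows from 250 bases before to 50 bases after each start. Psmb1, Psmb2, Psmc3, Psmd3, Psmd7 and Psmg2 had no entry. The core of the ARE, searched as TGACNNNGC on both strands, was in 4 of the 32 windows (12.5%: Psmc6, Psmd12, Psmd9 and Psme4), against 14% of all 27025 promoters. Its first bases, TGAC, also begin the sites of AP-1 and of cyclic AMP response factors. The core of the interferon-stimulated response element (ISRE), searched as GAAANNGAAA on both strands and added after the values were seen, was in 4 of 32 (12.5%: Psmb3, Psmd4, Psmd9 and Psmg4), against 3.99% of all promoters. The stretches below show all 6 matches that end before the start, from Psmb3, Psmd4, Psmd9, Psmc6 and Psmd12. The match of Psme4 crosses the start and that of Psmg4 lies wholly after it, and neither is shown. Capitals mark the match, and all are written 5′ to 3′ on the gene's strand.
Psmb3 (ISRE core, chr11:97703251-97703300, plus strand): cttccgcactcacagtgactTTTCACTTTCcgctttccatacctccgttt
Psmd4 (ISRE core, chr3:95042665-95042714, minus strand): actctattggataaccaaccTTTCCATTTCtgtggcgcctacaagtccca
Psmd9 (ISRE core, chr5:123228011-123228060, plus strand): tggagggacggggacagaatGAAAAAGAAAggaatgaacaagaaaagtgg
Psmd9 (ARE core, chr5:123228139-123228187, plus strand): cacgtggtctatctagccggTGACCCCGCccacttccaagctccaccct
Psmd12 (ARE core, chr11:107479278-107479309, plus strand): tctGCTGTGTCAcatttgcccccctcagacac
Psmc6 (ARE core, chr14:45329577-45329625, plus strand): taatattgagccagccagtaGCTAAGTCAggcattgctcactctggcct
The matches lay 153 bases before the start of Psmb3, 70 before that of Psmd4, 218 before that of Psmc6, 238 before that of Psmd12, and 149 and 22 before that of Psmd9. A match is a description of letters and does not show that a factor binds there.

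With CDDO-Me, most 20S ring genes rose in WT CM and KEAP1 KO CM, while the number of 19S genes that passed depended on 2 libraries that stood apart. A gene was called when limma's moderated test gave an adjusted p under 0.05 over all 13661 genes. Fold changes are on the scale of log2(scaled TPM + 1), which understates changes of low genes. In WT CM/CDDO-Me BMDMs 12 of the 38 genes were higher than in WT CM/vehicle BMDMs, where 13.9% of all genes were, and 3 were lower, where 13.9% of all genes were. In KEAP1 KO CM the counts were 11 higher and 3 lower, against 14.5% and 14.2% of all genes. In media 2 were higher and 0 lower, against 3.07% of all genes higher, and 10 members had an unadjusted p under 0.05, as 16.1% of all genes did. Of the 38, 3 were higher and 1 was lower in NRF2 KO CM, against 4.5% and 5.28% of all genes.

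By role, 8 of the 11 ring genes were higher in WT CM and 7 in KEAP1 KO CM, with median log2 fold changes of 0.43 and 0.47, and none was lower. Of the 17 subunits of the 19S particle, 2 were higher and 1 was lower in each of these media, with medians of 0.09 and 0.11. When the 2 libraries, both of NRF2 KO CM groups, were left out, 8 of the 17 were higher in WT CM and 8 in KEAP1 KO CM (23.6% of all genes in each), and 10 in media (7.41%) and 4 in NRF2 KO CM (4.97%), with Psmd8 the 1 lower gene in each medium. In the same fit 10 of the 11 ring genes were higher in WT CM, 11 in KEAP1 KO CM, 5 in media and 0 in NRF2 KO CM. The medians of the 19S genes in that fit were 0.14 in WT CM and 0.13 in KEAP1 KO CM, and those of the ring genes 0.47 and 0.49. Over all 38 genes the median was 0.21 in WT CM and 0.20 in KEAP1 KO CM, against -0.03 and -0.02 over all genes tested. The corresponding medians were 0.15 in media and 0.14 in NRF2 KO CM, against -0.01 in each for all genes. The 4 comparisons of CDDO-Me with vehicle use separate libraries. The 10 genes higher in both WT CM and KEAP1 KO CM were Psma1, Psma3, Psma4, Psma5, Psma7, Psmb2, Psmb3, Psmd7, Psmf1 and Psmg4, and the same 3 genes, Psmd8, Psmg1 and Psmg2, were lower in both.

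**Figure D1:**
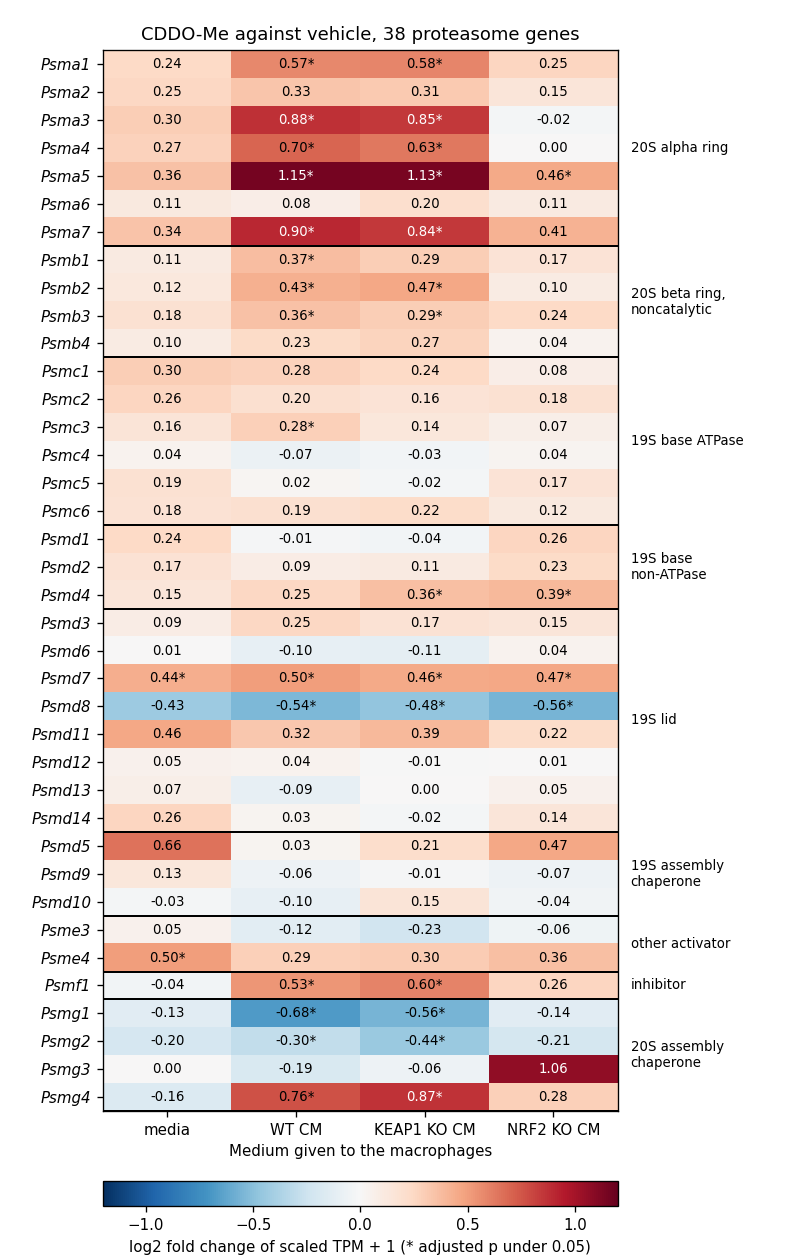
Log2 fold change of CDDO-Me against vehicle for the 38 genes (rows, grouped by role) in 4 media (columns), coloured from blue (lower with CDDO-Me) to red (higher), with an asterisk at an adjusted p under 0.05. The strongest red lies in the alpha ring of WT CM and KEAP1 KO CM, up to 1.15 for Psma5, while the value of 1.06 for Psmg3 in NRF2 KO CM carries no asterisk.

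Without the 2 libraries that stood apart, 13562 genes were tested and more were called in each medium. The counts for media became 17 higher and 1 lower, against 7.41% and 8.21% of all genes. For WT CM they became 21 and 3, against 23.6% and 20.1%, and for KEAP1 KO CM 22 and 4, against 23.6% and 21.7%. For NRF2 KO CM they became 6 and 1, against 4.97% and 5%. Every member called with all libraries was still called without the 2, except Psma5 in NRF2 KO CM. With the replicate number as a block, which pairs libraries that share a number, 5 members were called in media, where 10.7% of all genes were. Without scaling between libraries the split in media was 3 higher and 1 lower. Shares of all genes called without scaling are not given here, so such a split does not show a change particular to the members. The median of all genes moved without scaling from -0.02 to -0.17 for CDDO-Me in KEAP1 KO CM, a shift that the fold changes of its members share. Between CM and media under CDDO-Me it moved from -0.01 to -0.16 for WT CM and to -0.15 for KEAP1 KO CM. None of the called values changed sign without scaling.

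On scaled TPM, all 3 CDDO-Me libraries lay above all 3 vehicle libraries for 21 members in WT CM (24.3% of all genes), 22 in KEAP1 KO CM (24.1%), 14 in media (14%) and 6 in NRF2 KO CM (7.94%). For all 11 ring genes the libraries separated in this way in WT CM and in KEAP1 KO CM, for 2 in media and for 3 in NRF2 KO CM. For Psma6 this rested on the scaling. Its TPM before scaling overlapped in WT CM, at 178, 187 and 181 with vehicle and 185, 179 and 172 with CDDO-Me. In KEAP1 KO CM it also overlapped, at 190, 199 and 177 TPM and 199, 194 and 183 TPM.

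Psma5, an alpha ring subunit, had the largest rise of the 38 genes. Its level was 87.9, 96.6 and 103 TPM in the media/vehicle libraries and 112, 115 and 142 TPM with CDDO-Me. In WT CM it was 102, 108 and 116 TPM with vehicle and 209.6, 207 and 256 TPM with CDDO-Me. Its levels in KEAP1 KO CM were 112, 118 and 120.03 TPM and 229.7, 208 and 249.6 TPM. Within each of these media every CDDO-Me library was above every vehicle library, and the 6 CDDO-Me libraries of WT CM or KEAP1 KO CM were above the other 18 libraries. The log2 fold change was 1.15 (SE 0.14, adjusted p = 1.9e-06) in WT CM, a 2.21-fold rise, 1.13 (SE 0.14, adjusted p = 2.2e-06) in KEAP1 KO CM and 0.36 (SE 0.14, adjusted p = 0.17) in media. The NRF2 KO CM levels were 99.8, 101 and 65.1 TPM with vehicle and 121, 122 and 115 TPM with CDDO-Me, a difference of 0.46 (SE 0.14, adjusted p = 0.041). That last call was lost without NRF2 KO CM/vehicle replicate 3 and without each of the 3 NRF2 KO CM/CDDO-Me libraries, which gave 0.33 to 0.50 with adjusted p from 0.062 to 0.14. Without both libraries that stood apart the value was 0.31 (adjusted p = 0.21).

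Psma3 and Psma7, which encode other subunits of the outer ring, rose in the same media. Psma3 was at 168, 199.6 and 195 TPM in WT CM/vehicle and 317, 298 and 344 TPM in WT CM/CDDO-Me. For KEAP1 KO CM the levels were 173, 216 and 196 TPM and 300.3, 312 and 318 TPM. The groups did not overlap, and the log2 fold changes were 0.88 (SE 0.19, adjusted p = 0.0014) and 0.85 (SE 0.19, adjusted p = 0.0019). In media it was at 135, 157 and 182 TPM and 184, 182 and 212 TPM, which differed by 0.30 (adjusted p = 0.56). Psma3 in NRF2 KO CM was at 152, 185 and 275 TPM and 197, 188 and 196 TPM, with the highest value in replicate 3 of vehicle. The difference there was -0.02 (adjusted p = 0.97), and 0.23 (adjusted p = 0.38) without the 2 libraries.

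For Psma7 the levels were 187, 181 and 203 TPM in WT CM/vehicle and 318, 311 and 364 TPM in WT CM/CDDO-Me. With KEAP1 KO CM they were 186, 204 and 212 TPM and 314, 301 and 346 TPM. Both pairs of groups were separate, with log2 fold changes of 0.90 (SE 0.14, adjusted p = 6.1e-05) and 0.84 (SE 0.14, adjusted p = 0.00012). In media Psma7 was at 151, 159 and 189 TPM and 201, 188 and 242 TPM and the difference was 0.34 (adjusted p = 0.22). NRF2 KO CM libraries held Psma7 at 169, 181 and 151 TPM and 210.5, 207 and 249 TPM, with a difference of 0.41 (adjusted p = 0.083). Psma7 has a close paralog, Psma8, which averaged 2.71 TPM over the 24 libraries. Exons of Psma7 overlap those of Ss18l1 on the opposite strand, and a strand setting was not given in the sources used here.

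Among the other alpha ring genes, Psma4 rose by 0.70 in WT CM and 0.63 in KEAP1 KO CM (adjusted p = 0.0039 and 0.0081), and Psma1 by 0.57 and 0.58 (adjusted p = 0.00025 and 2e-04). Psma2 and Psma6 did not pass the test with all libraries, with values of 0.33 and 0.08 in WT CM and 0.31 and 0.20 in KEAP1 KO CM. Psma2 passed in both media without the 2 libraries, at 0.38 (adjusted p = 0.0056) and 0.34 (adjusted p = 0.011), and Psma6 in KEAP1 KO CM, at 0.22 (adjusted p = 0.011). With all libraries 5 of the 7 genes rose in both media, with medians of 0.70 and 0.63 over the ring.

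In the beta ring, Psmb2 had the largest mean effect. It was at 128, 147 and 154 TPM in WT CM/vehicle and 172, 167 and 195 TPM in WT CM/CDDO-Me, and at 146, 155 and 148 TPM and 174, 173 and 205 TPM in KEAP1 KO CM. Each CDDO-Me group lay above its vehicle group, by 0.43 (SE 0.12, adjusted p = 0.01) and 0.47 (SE 0.12, adjusted p = 0.0054). Without WT CM/vehicle replicate 1, or without WT CM/CDDO-Me replicate 3, the WT CM value was 0.35 or 0.36 and did not pass (adjusted p = 0.068 and 0.063). In media Psmb2 was at 127, 127 and 133 TPM and 136, 141 and 144 TPM, and in NRF2 KO CM at 134, 138 and 130.1 TPM and 129.9, 142 and 158 TPM. These differed by 0.12 (adjusted p = 0.79) and 0.10 (adjusted p = 0.74). Psmb3, whose ISRE core is shown above, rose by 0.36 (SE 0.10, adjusted p = 0.0096) in WT CM and 0.29 (SE 0.10, adjusted p = 0.032) in KEAP1 KO CM. Psmb1 rose in WT CM by 0.37 (SE 0.11, adjusted p = 0.02) and differed by 0.29 (adjusted p = 0.062) in KEAP1 KO CM, and Psmb4 passed in neither with all libraries. Psmb4 passed in both without the 2 libraries, at 0.27 (adjusted p = 0.0018) and 0.30 (adjusted p = 8e-04).

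**Figure D2:**
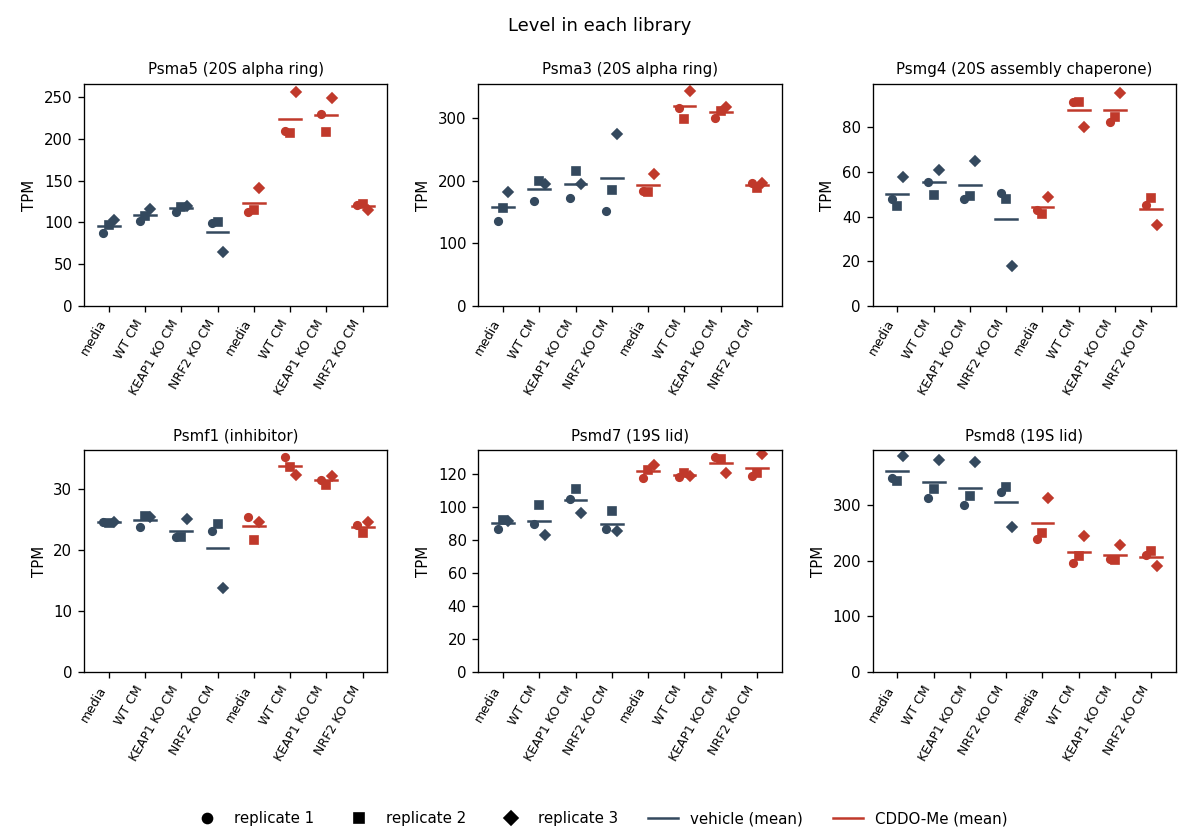
TPM in each library for 6 genes, by medium, in vehicle (dark blue) and CDDO-Me (red), with a symbol for each replicate number and a line at the group mean, and vertical axes from 0. Psma5, Psma3, Psmg4 and Psmf1 stand high only with CDDO-Me in WT CM or KEAP1 KO CM, apart from 1 NRF2 KO CM/vehicle library of Psma3 (275 TPM), whereas Psmd7 is higher and Psmd8 lower with CDDO-Me in all 4 media.

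In the 19S base, the ATPase with the largest mean effect was Psmc1. It was at 121, 122 and 139 TPM in media/vehicle and 149.7, 159 and 159 TPM in media/CDDO-Me, at 137, 131 and 125 and 146, 145 and 151 TPM in WT CM, and at 140.4, 141 and 149 and 158, 141 and 153 TPM in KEAP1 KO CM. Psmc1 in NRF2 KO CM was at 128, 132 and 162 TPM and 162, 159.95 and 123 TPM, with replicate 3 high in vehicle and low in CDDO-Me. The differences, 0.30, 0.28, 0.24 and 0.08 in the order used above, did not pass (adjusted p = 0.19, 0.1, 0.17 and 0.8). Without the 2 libraries that stood apart all 4 passed, at 0.31, 0.32, 0.26 and 0.34 (adjusted p = 0.0053, 0.0011, 0.0051 and 0.017). Psmc3 was the only ATPase called with all libraries, in WT CM, at 0.28 (SE 0.07, adjusted p = 0.0052). Psmc6, whose ARE core is shown above, was called higher in WT CM and KEAP1 KO CM without the 2 libraries.

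Psmd4, a ubiquitin receptor of the base, was the non-ATPase subunit with the largest effect. In KEAP1 KO CM it was at 107, 112 and 108 TPM with vehicle and 125, 122 and 126 TPM with CDDO-Me, a rise of 0.36 (SE 0.10, adjusted p = 0.011) that did not pass without scaling between libraries (0.19, adjusted p = 0.27). Psmd4 in NRF2 KO CM was at 100.3, 102 and 62.6 TPM and 112, 115 and 112 TPM, a rise of 0.39 (SE 0.10, adjusted p = 0.016), which became 0.20 (adjusted p = 0.032) without the 2 libraries. Leaving out NRF2 KO CM/CDDO-Me replicate 3 alone gave 0.32 (adjusted p = 0.07). In media it was at 99.1, 102 and 108 TPM and 114, 116 and 112 TPM, and in WT CM at 109, 109.6 and 102 TPM and 114, 119 and 120.1 TPM. CDDO-Me libraries lay above vehicle libraries in both, by 0.15 (adjusted p = 0.59) and 0.25 (adjusted p = 0.08). Psmd1 and Psmd2, the scaffold subunits, passed in no medium with all libraries, and in media alone without the 2, at 0.25 (adjusted p = 0.035) and 0.18 (adjusted p = 0.029).

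The lid held 2 genes that moved in opposite directions. Psmd7, the partner of the deubiquitinase subunit Psmd14, was at 86.9, 92.2 and 91.6 TPM in media/vehicle and 118, 123 and 126 TPM in media/CDDO-Me. The corresponding levels were 89.6, 101 and 83.4 and 119, 121 and 119 TPM in WT CM, 105, 111 and 96.4 and 130.3, 129 and 121 TPM in KEAP1 KO CM, and 86.6, 97.5 and 85.4 and 119, 121 and 132 TPM in NRF2 KO CM. In each medium every CDDO-Me library was above every vehicle library. With all libraries it was the only member called in all 4 media, with 0.44 (SE 0.09, adjusted p = 0.0063) in media, 0.50 (SE 0.09, adjusted p = 0.00037) in WT CM, 0.46 (SE 0.09, adjusted p = 0.00083) in KEAP1 KO CM and 0.47 (SE 0.09, adjusted p = 0.0025) in NRF2 KO CM. The members called in all 4 media without the 2 libraries were 6 in number: Psmc1, Psmd4, Psmd7, Psmd11 and Psme4, all higher, and Psmd8, lower.

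Psmd8, the most abundant of the 38 mRNAs, was at 349, 344 and 389 TPM in media/vehicle and 238, 250.4 and 313 TPM in media/CDDO-Me. In WT CM it was at 313, 329 and 380.2 TPM and 195, 209 and 245 TPM, and in KEAP1 KO CM at 301, 316 and 377 TPM and 203, 201 and 228 TPM. Psmd8 in NRF2 KO CM was at 324, 332 and 259.8 TPM and 209.97, 217 and 191 TPM. The CDDO-Me libraries were below the vehicle libraries in each medium. It fell by 0.54 in WT CM (SE 0.14, adjusted p = 0.0049), in KEAP1 KO CM by 0.48 (SE 0.14, adjusted p = 0.012), and in NRF2 KO CM by 0.56 (SE 0.14, adjusted p = 0.012). In media the value was -0.43 (adjusted p = 0.074), and it passed with the replicate block (adjusted p = 0.0058), without the 2 libraries that stood apart (adjusted p = 0.033) and without media/CDDO-Me replicate 3 (-0.59, adjusted p = 0.012). In KEAP1 KO CM it did not pass without KEAP1 KO CM/vehicle replicate 3 (-0.35, adjusted p = 0.083) or KEAP1 KO CM/CDDO-Me replicate 2 (-0.39, adjusted p = 0.063). The other 6 lid genes passed in no medium with all libraries, among them Psmd11, whose values ran from 0.22 in NRF2 KO CM to 0.46 in media. Psmd12, whose ARE core is shown above, passed for CDDO-Me in no medium without the 2 libraries either. In that fit it was higher with WT CM and KEAP1 KO CM than with media, under vehicle and under CDDO-Me. Psmd11 passed in all 4 without the 2 libraries, at 0.48 (adjusted p = 5.9e-05) in media, 0.37 (adjusted p = 0.00016) in WT CM, 0.41 (adjusted p = 4.7e-05) in KEAP1 KO CM and 0.40 (adjusted p = 0.0027) in NRF2 KO CM.

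None of the 3 chaperones of 19S assembly was called. Psmd5 had the largest effect, at 17.6, 23.0 and 22.2 TPM in media/vehicle and 31.3, 32.7 and 35.9 TPM in media/CDDO-Me. In NRF2 KO CM it was at 18.4, 24.0 and 42.3 TPM and 30.7, 30.0 and 54.6 TPM, in WT CM at 25.1, 25.5 and 22.8 and 20.2, 25.3 and 24.2 TPM, and in KEAP1 KO CM at 18.9, 23.6 and 23.7 and 21.6, 24.9 and 21.7 TPM. The CDDO-Me libraries were above the vehicle libraries in media, where the difference was 0.66 (adjusted p = 0.2) with all libraries and 0.67 (adjusted p = 0.00049) without the 2 that stood apart. The other values were 0.03 (adjusted p = 0.96) in WT CM, 0.21 (adjusted p = 0.64) in KEAP1 KO CM and 0.47 (adjusted p = 0.37) in NRF2 KO CM. In NRF2 KO CM it was 0.54 (adjusted p = 0.017) without the 2 libraries and 0.87 (adjusted p = 0.017) without NRF2 KO CM/vehicle replicate 3 alone. Psmd9, which held both promoter motifs, and Psmd10 were called in none of the 15 comparisons, with or without the 2 libraries, as were Psmd13 and Psmg3.

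Of the activators that work without ubiquitin, Psme4 (PA200, an activator of the nucleus) was at 25.0, 28.0 and 27.9 TPM in media/vehicle and 37.6, 36.5 and 40.9 TPM in media/CDDO-Me. It rose by 0.50 (SE 0.15, adjusted p = 0.049), and leaving out any 1 of these 6 libraries gave 0.41 to 0.56 with adjusted p from 0.067 to 0.21. In WT CM it was at 30.6, 32.2 and 36.1 TPM and 33.3, 37.6 and 41.8 TPM, in KEAP1 KO CM at 34.2, 36.0 and 35.9 and 38.4, 36.5 and 42.1 TPM and in NRF2 KO CM at 25.7, 28.4 and 34.3 and 36.8, 36.4 and 40.5 TPM. Those differences, 0.29, 0.30 and 0.36, did not pass (adjusted p = 0.17, 0.14 and 0.14). All 3 passed without the 2 libraries, at 0.33, 0.33 and 0.45, and the last also without NRF2 KO CM/vehicle replicate 3 alone (0.55, adjusted p = 0.0086). Psme3, another nuclear activator (PA28 gamma), was called in no medium with all libraries, and was lower in KEAP1 KO CM without the 2, at -0.20 (adjusted p = 0.0047).

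Psmf1, which encodes the inhibitor PI31, rose in WT CM and KEAP1 KO CM and did not pass the test in the other media. Its levels were 24.6, 24.4 and 24.5 TPM in media/vehicle and 25.3, 21.6 and 24.5 TPM in media/CDDO-Me, which overlapped. In WT CM they were 23.7, 25.5 and 25.4 TPM and 35.2, 33.5 and 32.3 TPM, and in KEAP1 KO CM 22.2, 22.0 and 25.0 TPM and 31.5, 30.7 and 32.1 TPM, with no overlap. The rises were 0.53 (SE 0.13, adjusted p = 0.0039) in WT CM and 0.60 (SE 0.13, adjusted p = 0.0013) in KEAP1 KO CM, against -0.04 (adjusted p = 0.99) in media. In NRF2 KO CM it was at 23.1, 24.3 and 13.8 TPM and 24.1, 22.7 and 24.5 TPM, a difference of 0.26 (adjusted p = 0.28), or 0.02 (adjusted p = 0.96) without the 2 libraries. Its exons overlap those of Tmem74b on the opposite strand.

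The 4 chaperones of 20S assembly did not move together. Psmg4 was at 55.5, 49.7 and 61.1 TPM in WT CM/vehicle and 91.4, 91.3 and 80.3 TPM in WT CM/CDDO-Me, and at 48.0, 49.2 and 64.8 TPM and 82.5, 84.8 and 95.6 TPM in KEAP1 KO CM. The groups were separate, with rises of 0.76 (SE 0.23, adjusted p = 0.015) and 0.87 (SE 0.23, adjusted p = 0.0062). The first did not pass without WT CM/vehicle replicate 2 (0.67, adjusted p = 0.071), without WT CM/CDDO-Me replicate 1 (0.73, adjusted p = 0.053) or without scaling between libraries (0.65, adjusted p = 0.057). In media it was at 47.8, 44.9 and 57.7 TPM and 43.0, 41.3 and 48.7 TPM, and in NRF2 KO CM at 50.6, 47.8 and 18.1 TPM and 45.4, 48.4 and 36.3 TPM. Those differences were -0.16 (adjusted p = 0.91) and 0.28 (adjusted p = 0.56).

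Psmg1 and Psmg2 form a heterodimer that helps to build the alpha ring. Both were called lower in WT CM and KEAP1 KO CM, and their values were below 0 in all 4 media. Psmg1 was at 23.7, 24.4 and 26.0 TPM in WT CM/vehicle and 15.4, 13.3 and 13.3 TPM in WT CM/CDDO-Me, and at 25.9, 28.7 and 23.5 TPM and 15.7, 17.7 and 12.9 TPM in KEAP1 KO CM. It fell by 0.68 (SE 0.13, adjusted p = 0.00042) and by 0.56 (SE 0.13, adjusted p = 0.0024), with no overlap, and differed by -0.13 (adjusted p = 0.8) in media and -0.14 (adjusted p = 0.64) in NRF2 KO CM. Psmg2 was at 23.9, 25.3 and 21.7 TPM and 18.9, 17.7 and 16.3 TPM in WT CM and at 24.0, 27.0 and 24.8 TPM and 17.3, 18.7 and 13.2 TPM in KEAP1 KO CM. It fell by 0.30 (SE 0.10, adjusted p = 0.031) and by 0.44 (SE 0.10, adjusted p = 0.0018). Its values of -0.20 in media and -0.21 in NRF2 KO CM did not pass. The effect on Psmg2 in WT CM or KEAP1 KO CM was not called different from that in media. Leaving out WT CM/vehicle replicate 1 or 2, or WT CM/CDDO-Me replicate 2 or 3, gave -0.29 to -0.25 in WT CM with adjusted p from 0.079 to 0.13. Exons of Psmg2 overlap those of Cep76 on the opposite strand. Psmg3 was called in no medium. Its value of 1.06 in NRF2 KO CM came with levels of 24.6, 22.0 and 0.499 TPM in vehicle and 25.7, 24.7 and 10.00 TPM in CDDO-Me, and it was 0.14 without the 2 libraries.

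The change in balance between core and cap was described by the ratio of the mean TPM of the 11 ring genes to that of the 17 subunits of the 19S particle in each library, for which no test was made. It was 1.24 ± 0.05 in media/vehicle (SD, n = 3), 1.37 ± 0.05 in WT CM/vehicle, 1.35 ± 0.03 in KEAP1 KO CM/vehicle and 1.29 ± 0.01 in NRF2 KO CM/vehicle. With CDDO-Me it was 1.34 ± 0.03 in media, 1.97 ± 0.06 in WT CM, 1.93 ± 0.05 in KEAP1 KO CM and 1.38 ± 0.01 in NRF2 KO CM. The 6 CDDO-Me libraries of WT CM or KEAP1 KO CM, from 1.89 to 2.02, lay above the other 18. From WT CM/vehicle to WT CM/CDDO-Me the mean ring level went from 159 to 219 TPM and the mean 19S level from 116 to 111 TPM. The fall of the 19S mean in WT CM came with Psmd8, and the mean of the other 16 subunits went from 102 to 105 TPM. In KEAP1 KO CM the mean 19S level went from 124 to 114 TPM, and that of the other 16 subunits from 111 to 108 TPM. All these means are TPM before scaling between libraries, so falls in them depend on the lack of scaling. On scaled TPM the median log2 fold change of the 17 subunits was above 0, at 0.09 in WT CM and 0.11 in KEAP1 KO CM. Without Psmd8 the ratio was 1.43 ± 0.06 in media/vehicle and 1.45 ± 0.06 in media/CDDO-Me, and 1.45 ± 0.03 and 1.45 ± 0.02 in the NRF2 KO CM groups, so the higher ratios with CDDO-Me in these media rested on Psmd8. It was 1.56 ± 0.09 and 2.10 ± 0.07 in WT CM and 1.51 ± 0.05 and 2.04 ± 0.06 in KEAP1 KO CM, where the groups were still separate. The ratio within a library does not depend on scaling between libraries.

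**Figure D3:**
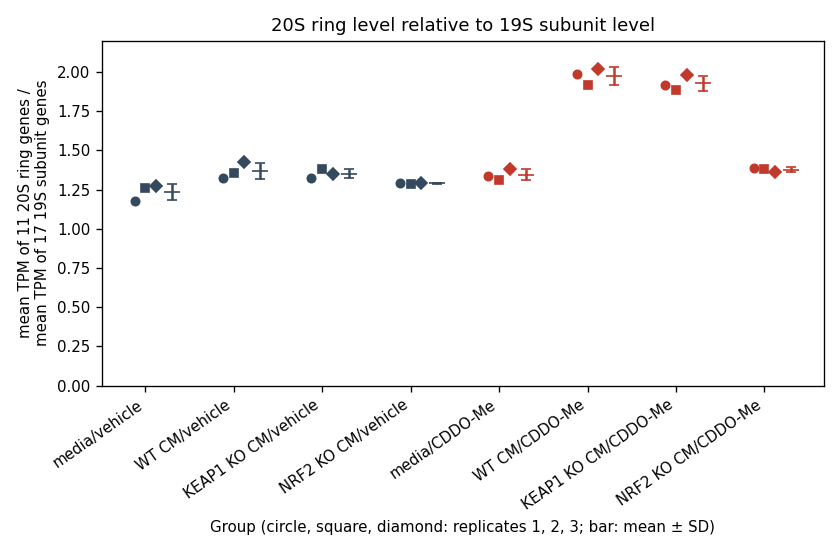
Ratio of the mean TPM of 11 ring genes of the 20S core to that of 17 subunits of the 19S particle, for each library (symbols) by group, with the mean ± SD beside them, on an axis from 0. Values of 1.89 to 2.02 with CDDO-Me in WT CM or KEAP1 KO CM stand above those of all other groups.

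Whether the effect of CDDO-Me depended on the medium was tested by the difference between effects. Psma5 rose more in WT CM than in media, by 0.79 (SE 0.20, adjusted p = 0.0076), and more in KEAP1 KO CM than in media, by 0.78 (SE 0.20, adjusted p = 0.0085). Psmf1 did so by 0.57 (SE 0.18, adjusted p = 0.043) and 0.64 (SE 0.18, adjusted p = 0.023), and Psmg4 in KEAP1 KO CM by 1.03 (SE 0.32, adjusted p = 0.036). These were all the members called: 2 of 38 for WT CM and 3 of 38 for KEAP1 KO CM, all higher, against 8.3% and 8.38% of all genes, so the share of members was no larger than that of all genes. Psma7 and Psma3 differed from media by 0.56 (adjusted p = 0.075) and 0.58 (adjusted p = 0.19) in WT CM, Psmg4 by 0.93 (adjusted p = 0.062) and Psmg1 by -0.55 (adjusted p = 0.052). Psma5 stayed called whichever library of these groups was left out. The WT CM value of Psmf1 lost its call in 11 of the 12 fits that left out 1 library of these groups, with values of 0.47 to 0.60 and adjusted p from 0.053 to 0.13, all except the one without media/CDDO-Me replicate 3. In KEAP1 KO CM, Psmf1 lost its call without media/CDDO-Me replicate 2 or KEAP1 KO CM/CDDO-Me replicate 3 (0.54 and 0.61, adjusted p = 0.077 and 0.054), and Psmg4 in 8 of 12 such fits (0.92 to 1.06, adjusted p from 0.055 to 0.096), all but those without media/vehicle replicate 2, KEAP1 KO CM/vehicle replicate 3, media/CDDO-Me replicate 3 or KEAP1 KO CM/CDDO-Me replicate 2.

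Without the 2 libraries that stood apart, 9 members were higher and 2 lower for WT CM minus media, against 16.4% and 12.5% of all genes, and 9 and 2 for KEAP1 KO CM minus media, against 16.4% and 13.4%. For WT CM the higher genes were Psma1, Psma3, Psma4, Psma5, Psma7, Psmb1, Psmb2, Psmf1 and Psmg4 and the lower ones Psmd5 and Psmg1. For KEAP1 KO CM they were Psma1, Psma3, Psma4, Psma5, Psma7, Psmb2, Psmd4, Psmf1 and Psmg4, with Psme3 and Psmg1 lower. The differences from media share the media libraries. Without scaling the KEAP1 KO CM split was 1 higher and 2 lower, while the median of all genes moved from -0.02 to -0.17. The share of all genes called in that fit is not given, so this split does not show a change particular to the members. For KEAP1 KO CM minus WT CM and for NRF2 KO CM minus media limma called 0 members (0% of all genes in each), with 0 members at an unadjusted p under 0.05, where 225 and 374 of all genes were. The 95% intervals of KEAP1 KO CM minus WT CM were -0.42 to 0.40 for Psma5, -0.32 to 0.45 for Psmf1 and -0.57 to 0.78 for Psmg4, with a median half-width of 0.40 over the 38 genes, so smaller differences between these media could not be seen.

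**Figure D4:**
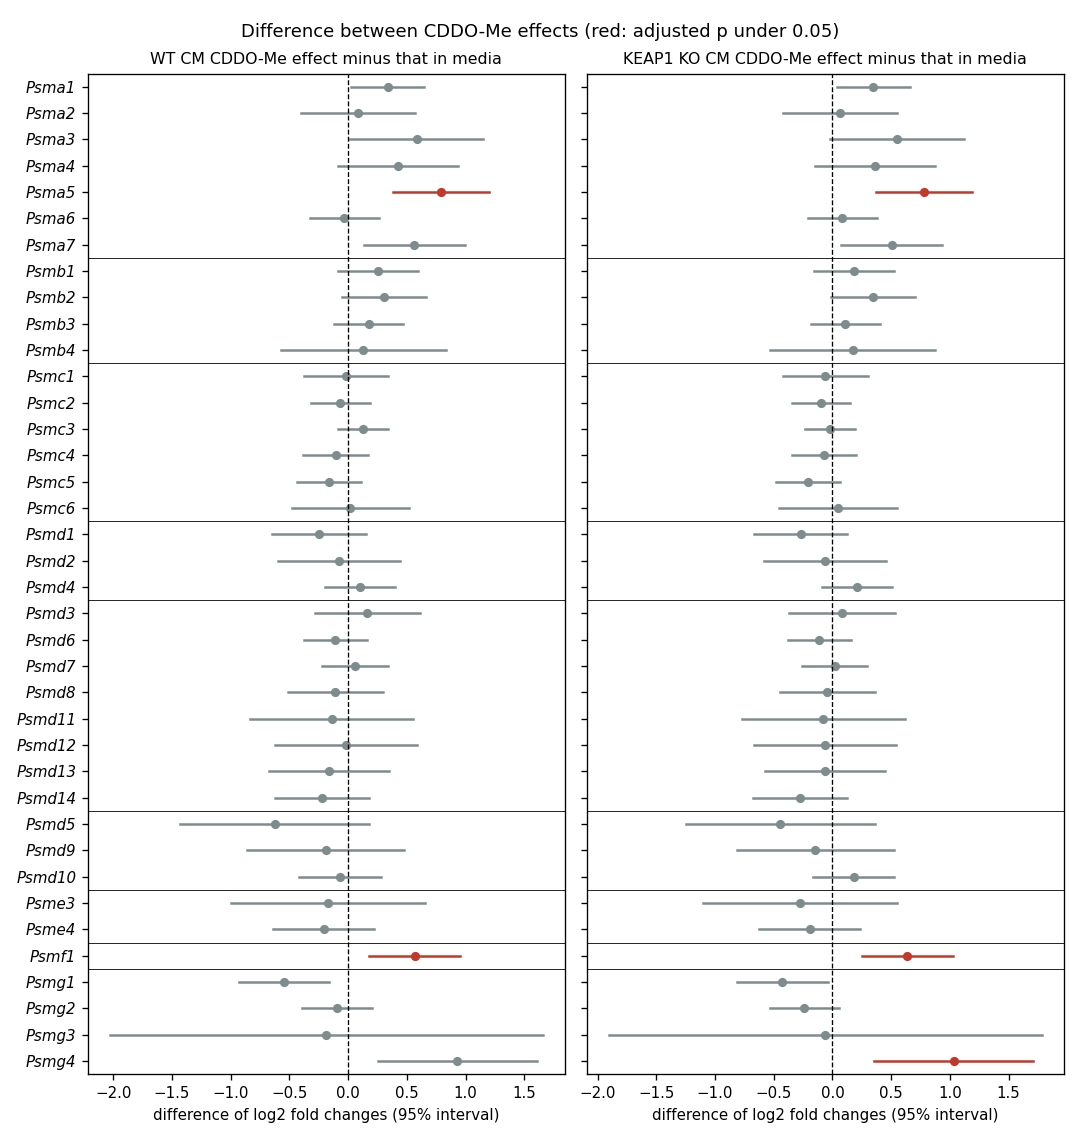
Difference between the CDDO-Me effect in WT CM (left) or KEAP1 KO CM (right) and that in media, on the log2 scale, for the 38 genes with 95% intervals, in red where the adjusted p was under 0.05. Psma5 and Psmf1 are red in both panels and Psmg4 in the right one, with differences from 0.57 to 1.03.

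In tumor CM without the drug few members passed the test, although most values lay above 0. Against media/vehicle, the median of the 38 genes was 0.20 with WT CM and 0.20 with KEAP1 KO CM, with 35 and 36 of 38 values above 0, and 0.04 with NRF2 KO CM. These comparisons share the media/vehicle libraries. limma called 0 members with WT CM (7.34% of all genes in either direction), with 8 at an unadjusted p under 0.05 (17.8% of all genes), and 4 with the replicate block (12.7% of all genes). All WT CM libraries lay above all media libraries for 23 members, where 18.6% of all genes did so. With KEAP1 KO CM 2 were called higher (4.65% of all genes) and 25 were separate (19.6%). With NRF2 KO CM 0 were called (0.00732% of all genes in either direction), 2 had an unadjusted p under 0.05 (12.1%), and 0 lay above media in all libraries (5.97%), while 3 lay below (6.87%). KEAP1 KO CM/vehicle against WT CM/vehicle gave 0 members and 0% of all genes, with 0 members and 341 of all genes at an unadjusted p under 0.05.

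The 2 genes called with KEAP1 KO CM were Psmb3 and Psmc4, an ATPase of the base. Psmb3 was at 149.6, 158 and 167 TPM in media/vehicle and 197, 203 and 201 TPM in KEAP1 KO CM/vehicle, a rise of 0.33 (SE 0.10, adjusted p = 0.046). Psmc4 was at 95.6, 89.8 and 94.7 TPM and 119, 119 and 117 TPM, a rise of 0.33 (SE 0.09, adjusted p = 0.032). Groups did not overlap for either gene, and each lost its call whichever of the 6 libraries was left out, with adjusted p from 0.052 to 0.19 and from 0.052 to 0.14. Without the 2 libraries that stood apart, in other groups, both passed (adjusted p = 0.001 and 0.00022), and 12 members were higher with WT CM (10.9% of all genes) and 15 with KEAP1 KO CM (12.6%), none lower.

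In the presence of CDDO-Me and with all libraries, the members called between tumor CM and media were mostly ring genes. WT CM/CDDO-Me BMDMs had 11 members higher than media/CDDO-Me BMDMs (13.7% of all genes) and KEAP1 KO CM/CDDO-Me BMDMs 10 (12.3%), with 0 lower in each. Of the 11 ring genes 8 were higher with either CM, and of the 17 subunits of the 19S particle 1 and 0. Psmg4, at 43.0, 41.3 and 48.7 TPM in media/CDDO-Me and 91.4, 91.3 and 80.3 TPM in WT CM/CDDO-Me, rose most, by 1.14 (SE 0.23, adjusted p = 0.00078), and by 1.12 (SE 0.23, adjusted p = 0.001) with KEAP1 KO CM. Psma5 was higher by 1.03 (SE 0.14, adjusted p = 9.7e-06) and 1.05 (SE 0.14, adjusted p = 8.2e-06), Psma3 by 0.90 (SE 0.19, adjusted p = 0.0013) and 0.84 (SE 0.19, adjusted p = 0.0028), and Psma7 by 0.83 (SE 0.14, adjusted p = 0.00019) and 0.77 (SE 0.14, adjusted p = 0.00047), in each case without overlap in the levels given above. Both comparisons share the media/CDDO-Me libraries. Without the 2 libraries that stood apart 19 members were higher and 2 lower with WT CM (23.8% and 20.2% of all genes), and 19 and 2 with KEAP1 KO CM (22.2% and 17.8%), with all 11 ring genes and 6 of the 17 subunits of the 19S particle higher in each. Without scaling the KEAP1 KO CM split was 10 higher and 2 lower, while the median of all genes moved from -0.01 to -0.15. The share of all genes called in that fit is not given, so this split does not show a change particular to the members. With NRF2 KO CM 0 members were called (0.154% of all genes in either direction) and 1 had an unadjusted p under 0.05 (7.36%).

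Marker levels moved with these groups. The macrophage markers summed to 21821.4 to 25268.3 TPM in media/CDDO-Me, 15201.5 to 18434.4 in WT CM/CDDO-Me, 17547.3 to 18226.1 in KEAP1 KO CM/CDDO-Me and 28774.6 to 38646.4 in NRF2 KO CM/CDDO-Me. With vehicle they summed to 22299.6 to 22838.4 TPM in media, 17368.1 to 18024.7 in WT CM, 16722.3 to 20493.6 in KEAP1 KO CM and 23568.8 to 26983.1 in NRF2 KO CM. The fibroblast markers summed to 1061.95 to 2703.4 TPM in media/CDDO-Me, 254.9 to 690.7 in WT CM/CDDO-Me, 218.8 to 924.6 in KEAP1 KO CM/CDDO-Me and 534.7 to 2010.25 in NRF2 KO CM/CDDO-Me. With vehicle they summed to 1104.3 to 1755.9 TPM in media, 650.7 to 1250.9 in WT CM, 950.9 to 1740.7 in KEAP1 KO CM and 852.4 to 2637.7 in NRF2 KO CM. In WT CM the fibroblast sums of replicates 1, 2 and 3 were 882.8, 1250.9 and 650.7 TPM with vehicle and 443.7, 690.7 and 254.9 TPM with CDDO-Me, where 1 CDDO-Me library lay above the lowest vehicle library. In KEAP1 KO CM all fibroblast sums with CDDO-Me lay below those with vehicle, and in media and NRF2 KO CM they overlapped. The macrophage sums with CDDO-Me lay above those with vehicle in NRF2 KO CM and overlapped in the other media. Lyz2 made up most of each sum, and single markers moved both ways. In NRF2 KO CM mean Lyz2 went from 20946 TPM with vehicle to 29512 TPM with CDDO-Me, and mean Cd68 from 1980 to 1258 TPM. In WT CM, where the sums overlapped, mean Cd68 went from 2109 to 725 TPM and mean Fcgr1 from 50.5 to 479 TPM. The part of these shifts in the proteasome results was not tested.

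Other genes of the same system were read from lists that also came from knowledge of earlier results. Of 16 tested proteasome subunits and partners outside the 38, 7 were higher and 3 lower with CDDO-Me in WT CM, 8 and 2 in KEAP1 KO CM, 1 and 0 in media, and 0 and 0 in NRF2 KO CM. Of all genes 13.9% were higher and 13.9% lower in WT CM, 14.5% and 14.2% in KEAP1 KO CM, and 3.07% higher in media and 4.5% in NRF2 KO CM. The immunoproteasome genes led them. Psmb8, an interferon-induced catalytic subunit, was at 159, 159 and 175 TPM in WT CM/vehicle and 942, 924 and 1018 TPM in WT CM/CDDO-Me, and at 133, 147 and 142 and 120.2, 121 and 149 TPM in media. It rose by 2.65 (SE 0.25, adjusted p = 8.7e-08) in WT CM and 2.71 (SE 0.25, adjusted p = 7e-08) in KEAP1 KO CM, Psmb9 by 2.60 and 2.64, and Psmb10 by 1.43 and 1.69. Psme1 and Psme2, the PA28 activator pair induced by interferon gamma, rose by 1.83 and 1.99 in WT CM and 1.90 and 2.22 in KEAP1 KO CM. Psme2b, a near-identical copy of Psme2, averaged 32.0 TPM, and reads may be split between them.

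The catalytic genes they stand in for changed less. Psmb7 rose by 0.52 and 0.33, Psmb6 fell by 0.39 in WT CM (adjusted p = 0.034) and differed by -0.31 (adjusted p = 0.089) in KEAP1 KO CM, and Psmb5 differed by 0.32 (adjusted p = 0.63) and 0.35 (adjusted p = 0.58). Pomp, the maturation factor of the 20S core, rose by 1.15 and 1.12, close to Psma5. Usp14, a deubiquitinase of the 19S particle, fell by 0.59 and 0.46, and Akirin2, which carries proteasomes into the nucleus, by 0.42 and 0.42.

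Of 9 regulators of proteasome genes, 0 were higher in media, 5 in WT CM, 6 in KEAP1 KO CM and 1 in NRF2 KO CM, and none was lower, where 3.07%, 13.9%, 14.5% and 4.5% of all genes were higher. Mafk, a small Maf partner of NRF1 and NRF2, rose by 0.94 in WT CM and 1.07 in KEAP1 KO CM, Keap1 by 0.81 and 0.80, Bach1, a repressor at AREs, by 0.51 and 0.65, and Ddi2, the protease that activates NRF1, by 0.44 and 0.38. Nfe2l1 itself differed by 0.32 (adjusted p = 0.076) and 0.29 (adjusted p = 0.11). These are not all of the regulators called. Values of the 9 ran from -0.66 to 0.94 in WT CM and from -0.13 to 1.52 in KEAP1 KO CM, where Mafk was thus not the largest. Of 4 ubiquitin genes, Ubb alone was called for CDDO-Me against vehicle, higher by 0.55 in WT CM, by 0.59 in KEAP1 KO CM and by 0.38 in NRF2 KO CM. Of 12 delivery and shuttle genes, 1 was higher in media, 3 in WT CM, 3 in KEAP1 KO CM and 4 in NRF2 KO CM, and 0, 2, 2 and 0 were lower. In WT CM and KEAP1 KO CM the lower counts are near the 13.9% and 14.2% of all genes that were lower. The autophagy receptor Sqstm1 was higher in all 4 media, from 0.55 in WT CM to 0.99 in NRF2 KO CM, the ubiquitin-activating enzyme Uba1 rose in 3, and the proteasome-binding proteins' genes Zfand5 and Zfand2a fell in WT CM and KEAP1 KO CM.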

How the data were processed

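Poly-A mRNA of 24 BMDM libraries was sequenced by Novogene as paired-end reads, and the authors quantified it with kallisto on the transcripts of GRCm39. The deposited table was read as TPM per gene name, although it is named as counts, and no count model was used. Comparisons of levels between genes rest on that reading. The depth of each single library is not known, and intervals that would need it are left out. Its total ran from 999365 to 999801 TPM per library, and 1 line without a gene name, 0.0199% to 0.0635% of each library, was left out. A strand setting was not given in the sources used here, and 18 of the 38 genes share exonic positions with another gene in GENCODE M39.

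Libraries were scaled by trimmed mean of M factors, with trims of 30% for M and 5% for A, and scaled TPM, after a pseudocount of 1 and a log2 step, were fitted with limma 3.58.1 in R 4.3.3, with eBayes and a trend on the mean level. A gene was tested if 3 or more libraries had it above 1 TPM. The 8 groups shared a fit, which left 16 residual degrees of freedom. In each of 15 comparisons the two-sided moderated p-values of every tested gene received the Benjamini-Hochberg adjustment, with a threshold of 0.05. The fits were tested on simulated data. The members and the lists were chosen with earlier results of these data known. Described in full were up to 4 called members with the largest rise and fall per comparison, and in each role the member with the largest mean CDDO-Me effect over the 4 media, and all others by counts and ranges. Some members outside this rule, such as Psmg3 and Psmd11, are named with values that were seen first.

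The main fit held no term for replicate number in any comparison, so its p-values leave any pairing out. Replicate numbers were read as a sign of pairing where all 3 correlations of deviations from the group means were above 0.1. This held for CDDO-Me in media and NRF2 KO CM, for WT CM against media and against KEAP1 KO CM with vehicle, and for all 3 CM against media with CDDO-Me (lowest correlations 0.112 to 0.504), and not for the other comparisons, where the lowest were 0.0624 to 0.097. The rule does not exclude pairing there. For CDDO-Me the means for the same and for different numbers were 0.26 and -0.13 in WT CM and 0.29 and -0.14 in KEAP1 KO CM. Over all groups 71 of 84 same-number correlations were above 0.1. The alternatives were RLE scaling, no scaling, no filter, a filter at 5 TPM, pseudocounts of 0.1 and 5, no trend, array weights, a replicate block, only the groups compared and each library left out in turn. Leaving out both libraries that stood apart was added after seeing the data. Promoters came from RefSeq on GRCm38.p6, an earlier build than that of the authors, and the printed coordinates are on that build. Figures were drawn with Python 3.11.15 and matplotlib 3.10.9.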

Additional observations from a re-analysis of the deposited data

Results flagged for a closer look

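The effect of CDDO-Me differed between media for 3 of the 38 genes by the test of the difference itself, in the fit of all 24 libraries. For Psma5 the effect in WT CM exceeded that in media by 0.79 (SE 0.20, adjusted p = 0.0076), and that in KEAP1 KO CM by 0.78 (SE 0.20, adjusted p = 0.0085). For Psmf1 the differences were 0.57 (SE 0.18, adjusted p = 0.043) and 0.64 (SE 0.18, adjusted p = 0.023). For Psmg4 the difference was 1.03 (SE 0.32, adjusted p = 0.036) in KEAP1 KO CM. Psma5 and Psmg4 belong to the core or its assembly and Psmf1 encodes an inhibitor of it. All 5 values were above 0, and all 5 share the media libraries. The share of members called, 2 and 3 of 38, was no larger than that of all genes (8.3% in WT CM and 8.38% in KEAP1 KO CM). When 1 library was left out, the call was lost for Psmf1 in WT CM in 11 of 12 fits and in KEAP1 KO CM in 2, for Psmg4 in 8, and for Psma5 in none. Groups of 3 libraries are too small for the check of single libraries far from the rest of their group.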

How the results depend on the processing

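None of the 63 called values of members turned its direction in 1101 values under the alternatives run. Of 1067 values of named genes under the alternatives, 954 kept their side of the threshold, 72 lost and 41 gained the call. Counts of members called moved by over 1.5 times as follows, and the cause was not tested. Shares of all genes are not given for the alternatives in this paragraph or for fits that left out 1 library. These counts therefore do not show a change particular to the members. For CDDO-Me against vehicle in media (2), the count was 4 without scaling, 1 with a pseudocount of 0.1, 1 with a pseudocount of 5, 1 without a trend and 4 with only the groups compared. In NRF2 KO CM (4) it was 0 with only the groups compared. For WT CM against media with vehicle (0) it was 1 without the filter and 2 with only the groups compared. For KEAP1 KO CM against media with vehicle (2) it was 4 without scaling, 1 without a trend and 8 with only the groups compared, and for WT CM against media with CDDO-Me (11) it was 17 with only the groups compared. For the CDDO-Me effect in WT CM minus media (2) it was 1 without scaling, 1 without the filter and 9 with only the groups compared, and for KEAP1 KO CM minus media (3) it was 5 with only the groups compared.

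Array weights, which let limma give single libraries less weight, raised the counts to 19 in media, 24 in WT CM, 25 in KEAP1 KO CM and 12 in NRF2 KO CM for CDDO-Me, where 26.3%, 52.3%, 51.4% and 22.2% of all genes were called. They gave 17 and 23 for WT CM and KEAP1 KO CM against media with vehicle (30.2% and 36.8%), 22 and 23 with CDDO-Me (55.2% and 44.5%), 3 for KEAP1 KO CM against WT CM (7.91%), and 13 and 13 for the effects in WT CM and KEAP1 KO CM minus media (39.5% and 39.4%). Leaving out both NRF2 KO CM replicate 3 libraries gave, in the same order, 18, 24, 26 and 7, then 12 and 15, then 21 and 21, and 11 and 11.

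With the replicate block, which treats libraries of 1 number as paired, the counts were 5 for CDDO-Me in media (10.7% of all genes), 4 and 6 for WT CM and KEAP1 KO CM against media with vehicle (12.7% and 13%), and 5 and 5 for the effects in WT CM and KEAP1 KO CM minus media (21% and 21.4%). It moved none of the other 10 counts by over 1.5 times. Leaving out 1 library at a time gave 1 to 2 in media, with 1 without any of its 6 libraries except media/CDDO-Me replicate 3, 11 to 15 in WT CM, 13 to 15 in KEAP1 KO CM and 2 to 6 in NRF2 KO CM for CDDO-Me, the 6 without NRF2 KO CM/vehicle replicate 3 and the 2 without NRF2 KO CM/CDDO-Me replicate 3. It gave 0 for KEAP1 KO CM against media with vehicle whichever library was left out, 10 to 12 and 9 to 12 for WT CM and KEAP1 KO CM against media with CDDO-Me, and 1 to 3 and 1 to 4 for the effects in WT CM and KEAP1 KO CM minus media. The 1 arose for WT CM without any library but media/CDDO-Me replicate 3 and WT CM/CDDO-Me replicate 1, and for KEAP1 KO CM without media/CDDO-Me replicate 2 or KEAP1 KO CM/CDDO-Me replicate 3. A filter at 5 TPM and RLE scaling moved no count by over 1.5 times. With 3 libraries a group, differences smaller than the intervals given could not be seen.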

Other observations

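Replicate 3 of NRF2 KO CM/vehicle differed from its group in opposite directions among the proteasome genes, in values picked out after they were seen. Psmg3 was at 24.6, 22.0 and 0.499 TPM in replicates 1, 2 and 3, Psmd2 at 165, 175 and 78.6 TPM and Psmb4 at 206, 203 and 92.3 TPM, each lowest in replicate 3. Psme3 was at 59.9, 61.6 and 138 TPM and Psmd11 at 46.2, 52.1 and 99.3 TPM, each highest in replicate 3. Replicate 3 of NRF2 KO CM/CDDO-Me deviated the same way, with Psmg3 at 25.7, 24.7 and 10.00 TPM, Psmb4 at 227, 216 and 85.3 TPM, Psmd2 at 187, 181 and 107 TPM, Psme3 at 64.1, 61.3 and 115 TPM and Psmd11 at 64.1, 63.4 and 92.6 TPM. The ratio of ring to 19S levels was 1.28 to 1.29 across the 3 vehicle libraries.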
